A study of Homo sapiens with 15 samples.

Results

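The number of ribosome footprints per mRNA was measured gene by gene in the control siRNA MCF-10A cells of a study of eIF3e depletion. It compares 3 footprint libraries with 3 total RNA libraries, which makes 6 of the 15 libraries of the series. Of 20248 genes present in both count tables, 7018 had a mean of at least 20 counts in each assay and are described here. MCF-10A is a non-tumorigenic human mammary epithelial line. The cells had received 20 nM control siRNA for 72 h. They carried no other treatment according to the labels, and grew with EGF, insulin, hydrocortisone and serum. For footprints, lysate of 5 OD260 units was treated for 45 min with RNase I (450 units), monosomes were collected on S-400 columns, and fragments of 26 to 34 nt were taken from a gel. Ribosomal RNA was removed from both kinds of library with Ribo-Zero Gold. The labels do not say whether the 3 replicates were separate cultures, so the p-values measure the spread between these libraries, which may be technical.

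A ribosome covers a short stretch of the mRNA it translates and shields it from nuclease. The footprints of a gene therefore count the ribosomes on its mRNA, while total RNA counts the mRNA itself, and their ratio is the usual measure of how well a message is translated. Messages differ in this ratio mainly through how often ribosomes start on them, how fast ribosomes move, and structures or reading frames in the leader before the coding region. eIF3 is the initiation complex that brings the small ribosomal subunit to mRNAs.

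The footprint libraries held 1889543 to 2577895 counts and the total RNA libraries 4480365 to 5646270, of which 64.0 to 71.2% fell on genes of the footprint table. Levels below are depth-scaled counts (CPM) relative to the counts on those genes, with trimmed-mean (TMM) scaling over the 6 libraries. On this scale 3 counts are 1.16 to 1.59 CPM in footprints and 0.746 to 0.987 CPM in total RNA. Percents of footprints or of total RNA held by a gene or a list are likewise of the counts on those genes. Ratios are log2 values of footprints over total RNA with their standard errors from edgeR, and 0 stands for the average gene after this scaling. They are ratios of read counts per gene: coding and UTR lengths are not used here, and whether reads over whole transcripts or over coding regions were counted is not given in the sources used here. Libraries of one assay resembled each other more than libraries of the other assay. Across genes, Pearson's r of log2 CPM was 0.937 to 0.961 between footprint libraries, 0.982 to 0.988 between total RNA libraries and 0.777 to 0.838 between a footprint and a total RNA library.

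All 10 markers of the line passed the count limit. KRT5, KRT14 and KRT17, the basal keratins, had mean counts of 7443, 3945 and 8888 in footprints, and TP63, the basal transcription factor, had 137 in footprints and 208 in total RNA. Of 8 luminal genes, 4 passed the limit. AREG, KRT18, FOXA1 and GATA3 had means of 2043, 488, 135 and 26 footprint counts and 2131, 264, 636 and 28 total RNA counts. KRT19 averaged 32 footprint and 15.7 total RNA counts, and ESR1 13.3 and 25.3. The luminal genes PGR and ELF5 had no count in any control library. Of 12 fibroblast, endothelial and blood markers, COL1A2, LUM and CD3E had no count in either assay. COL1A1, DCN and CD14 passed the limit, with means of 28, 141 and 329 footprint counts and 32, 129 and 242 total RNA counts. HBB had no footprint, and 166, 2 and 4 total RNA counts. The 12 genes summed to 0.0201 to 0.0274% of footprint counts and 0.0109 to 0.0161% of total RNA counts.

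Messages differed widely in footprints per mRNA. From the 5th to the 95th percentile of genes the log2 ratio ran from -1.83 to 1.43, a 9.56-fold range, while its median standard error was 0.21. The footprint libraries stood higher than the total RNA libraries for 2022 genes (28.8% of those tested) and lower for 2242 (31.9%) at an adjusted p under 0.05 in edgeR's quasi-likelihood test. With a fold of at least 2 as well, 954 genes were higher (13.6%) and 1298 lower (18.5%). The libraries of the 2 assays did not overlap in 4600 genes (65.5%). The split depends on the scaling. With total RNA scaled to all genes of its table, here and below without TMM, 3055 genes were higher and 1451 lower. Log2 ratios then shifted by a median of 0.40. Scaled by library totals alone, without TMM, 1619 were higher and 2572 lower, and log2 ratios shifted by a median of -0.16. With a mean of at least 100 counts in each assay, the scaling was recomputed on the 2845 genes left. Their log2 ratios shifted by a median of -0.245, so calls lost or gained there are read against a moved average gene. The same holds with a mean of at least 1 count in each assay, where log2 ratios shifted by a median of 0.134. Ratios are therefore read here against the average gene. Counts of list members called below are to be read against the 28.8% higher and 31.9% lower over all genes tested.

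**Figure D1:**
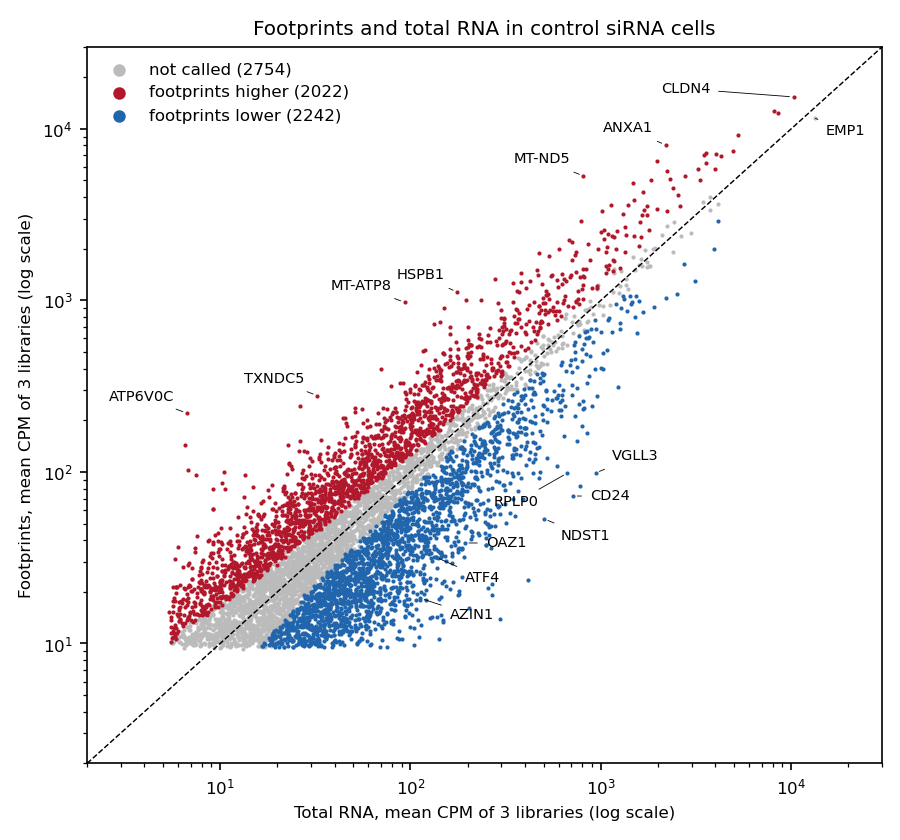
Mean footprint CPM (vertical) against mean total RNA CPM (horizontal) of the 7018 genes, both on log scales, with 3 libraries behind each mean. Red points are the 2022 genes with footprints higher and blue points the 2242 with footprints lower than total RNA in edgeR's test, grey points were not called, and the dashed line marks equal CPM. The cloud widens well beyond the line on both sides at all levels.

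Among the genes of the footprint table, footprints were more concentrated on few genes than total RNA was. Total RNA counts on other genes did not enter. The 100 most abundant of these genes in each library held 32.4 to 35.3% of footprints, against 24.8 to 26.5% of total RNA. In footprints 50% of the counts was reached with 250 to 312 genes, against 458 to 519 in total RNA. The gene with the most, the tight junction claudin CLDN4, held 1.70, 1.44 and 1.19% of footprints, against 1.23, 1.02 and 1.00% of total RNA. THBS1, the secreted matrix protein thrombospondin 1, held 1.1, 1.12 and 1.38% of footprints, against 0.747, 0.831 and 1.00% of total RNA. ANXA1, the membrane-binding annexin A1, held 0.801, 0.744 and 0.738% of footprints, against 0.237, 0.242 and 0.214% of total RNA. The shares were far apart for ANXA1 and overlapped between the assays for CLDN4.

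Among the genes with most footprints, these had a ratio above the average gene: ANXA1 (log2 ratio 1.88 ± 0.13), the matrix protein TGFBI (1.01 ± 0.13), complement component C3 (0.82 ± 0.13), the desmosomal cadherin DSG3 (0.81 ± 0.14), THBS1 (0.64 ± 0.14), the laminin-binding integrin ITGB4 (0.58 ± 0.13) and CLDN4 (0.58 ± 0.16). The call of CLDN4 was lost with a mean of at least 100 counts (0.33, adjusted p = 0.076). EMP1, an epithelial membrane protein, had the most total RNA counts of the genes tested and was not called. It was at 13918, 11655 and 8951 CPM in footprints and 15516, 13468 and 11258 CPM in total RNA. It was called lower when scaled by library totals alone (adjusted p = 0.0189) and with a mean of at least 100 counts (0.0165).

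Among genes of the translation machinery, the eIF3 subunits stood above the average gene. Of the eIF3 subunits, 9 of 12 tested were higher and none lower, with a median log2 ratio of 0.92, against -0.01 over all genes tested. EIF3C and EIF3CL, near-identical copies, had at most 9 footprint counts and no total RNA count in any library and were not tested. EIF3A, the largest subunit, had 558, 557 and 699.8 CPM in footprints, against 209.9, 248 and 229 CPM in total RNA (log2 ratio 1.40 ± 0.13, adjusted p = 2.39e-07). EIF3H was at 472, 456 and 487 CPM in footprints, against 213, 194 and 189 CPM in total RNA (1.25 ± 0.12, adjusted p = 2.22e-07). The libraries were well separated for both. EIF3E, the subunit depleted elsewhere in the study, had a ratio of 0.69 ± 0.12 (adjusted p = 8.62e-05), EIF3M one of 1.33 ± 0.14, and EIF3F, at 0.14 ± 0.20 (adjusted p = 0.568), was the lowest of the list. EIF3E and EIF3M were chosen after their values were seen.

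Of 27 other initiation factors and their regulators, 9 were higher (33.3%) and 8 lower (29.6%), near the 28.8% and 31.9% over all genes, with a median of -0.01, or 0.39 when total RNA was scaled to all genes of its table. EIF1, which keeps start codon choice strict, had 830.5, 775 and 604 CPM in footprints, against 354, 307 and 271 CPM in total RNA (1.25 ± 0.14, adjusted p = 2.01e-06). EIF4B, which assists the cap-bound helicase, had 20.2, 47.5 and 38.7 CPM in footprints, against 123, 136 and 93.5 CPM in total RNA (-1.74 ± 0.24, adjusted p = 1.17e-05). PABPC1, the main poly(A)-binding protein, had 337, 423 and 429.6 CPM in footprints, against 1073, 1121 and 898 CPM in total RNA (-1.38 ± 0.13, adjusted p = 3.93e-07). EIF4B and PABPC1 footprints lay below total RNA in every library. Pseudogene symbols held 5.71% of the total RNA counts of gene and pseudogenes for EIF4B and 0.92% for PABPC1. Here and below such percents cover total RNA only. How footprints of genes with copies were assigned was not tested. The helicase EIF4A1 had the highest ratio of the list, 3.22 ± 0.16, on a mean of 95 total RNA counts. The total RNA table also holds 13 EIF4A1 pseudogene symbols with 18.3% of the counts of gene and pseudogenes together, and a symbol for a transcript read through from SENP3, so how its reads were split is uncertain. The ribosome-joining factor EIF5B (1.87 ± 0.20) and the initiation factor EIF4G2 (-1.56 ± 0.14) were named after their values were seen, as was PABPC1. DDX3X, a helicase for structured leaders, was at 0.45 ± 0.13 (adjusted p = 0.00652, 0.0552 scaled by library totals alone and 0.159 with a mean of at least 100 counts). The cap-binding protein EIF4E was left out, with 0, 3 and 2 footprint counts and 19, 30 and 36 total RNA counts.

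Among elongation and termination factors, 4 of 9 tested were higher (44.4%) and 2 lower (22.2%), against 28.8% and 31.9% over all genes. The median was 0.26. EEF2, the translocase, had 4665, 4558 and 4425 CPM in footprints, against 2446, 2309 and 2433 CPM in total RNA (0.93 ± 0.12, adjusted p = 5e-06), and the footprint libraries lay clearly above. ETF1, the release factor that reads stop codons, was lower at -0.91 ± 0.14 (adjusted p = 4.58e-05). EEF1A1, which delivers tRNAs, was at 0.97 ± 0.21, but 39 pseudogene symbols held 47.0% of the total RNA counts of gene and pseudogenes together. Its adjusted p of 0.00102 became 0.141 with limma-voom and 0.0581 in one fit over 12 libraries. EEF1G, another subunit of the tRNA-delivering complex, had 423, 332 and 315 footprint counts and no total RNA count, and was not tested.

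Cytosolic ribosomal proteins were close to the shares over all genes. Of 66 tested, 22 were higher, 22 lower and 22 not called, which makes 33.3% in each direction, against 28.8% higher and 31.9% lower over all genes, with a median of 0.04, or -0.11 when scaled by library totals alone, and from -0.07 to 0.24 with 1 library left out. They held 1.79, 1.84 and 1.79% of footprints, against 2.24, 1.94 and 1.69% of total RNA, and these shares overlapped. RPLP0, the stalk protein of the large subunit, had 88.7, 130.2 and 76.3 CPM in footprints, against 808, 651 and 539 CPM in total RNA (-2.76 ± 0.19, adjusted p = 1.49e-08). RPS16, a protein of the small subunit, had 412, 448 and 355 CPM in footprints, against 144, 126 and 131 CPM in total RNA (1.6 ± 0.13, adjusted p = 5.68e-08). The libraries of the 2 assays were far apart for both proteins, in opposite directions. RPS6, the small-subunit protein phosphorylated by S6 kinases, had the second most footprint counts of the list and was not called, at -0.06 ± 0.14 (adjusted p = 0.734). RPL8, with the most, was at 0.33 ± 0.13 (adjusted p = 0.0372), and its adjusted p ran from 0.0548 to 0.19 without each of 4 of the 6 libraries. Of 14 ribosomal protein genes left out, 11 passed in total RNA only, and RPL17 and RPL41 had no footprint beside means of 241 and 170 total RNA counts. Nearly all ribosomal protein genes have pseudogene copies, and 798 pseudogene symbols held 2.01% of the total RNA counts of this list, so single members are uncertain.

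Ribosomal protein mRNAs are known for a 5′ terminal oligopyrimidine start, a cytidine followed by a run of pyrimidines, through which growth signals control their translation as a group. The starts of 6 of these genes are shown because they carry the same kind of start at opposite ends of the range: the 3 with the lowest and the 3 with the highest ratio among members with such a start whose window is shown here. Each window covers 10 bases before the annotated RefSeq start and 16 from it (GRCh38.p14). Capitals mark the first base and the 4 after it.
RPLP0, chr12:120201096-120201121, minus strand: ggcgcgaggcCCTTCtctcgccaggc
RPS12, chr6:132814559-132814584, plus strand: cggatgaggcCTCTTtccctgccgcc
RPL12, chr9:127451391-127451416, minus strand: cgatttccggCCTCTcggctttcggc
RPL14, chr3:40457329-40457354, plus strand: ggtcttcttcCTTCTcgcctaacgcc
RPL38, chr17:74203668-74203693, plus strand: aagtctcgttCTTTTtcgtccttttc
RPS16, chr19:39435934-39435959, minus strand: ccctagctttCCTTTtccggttgcgg

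RPS12, a small-subunit protein, had a log2 ratio of -2.45 ± 0.25 and RPL12, near the stalk of the large subunit, one of -1.76 ± 0.16. The large-subunit proteins RPL14 and RPL38 were at 0.77 ± 0.14 and 1.00 ± 0.13. The start searched for, C and then 4 of C or T at the annotated first base on the gene's strand, was found in 35 of 51 tested ribosomal protein genes with a promoter entry (68.6%), against 380 of 5808 genes tested (6.54%) and 4.04% of all 27305 promoters. Ribosomal protein genes with the start had a median log2 ratio of 0.05, with 11 higher and 11 lower, and the other 16 one of 0.23, with 6 higher and 4 lower. Over all genes tested the medians were -0.02 with the start and -0.01 without it. A match is a description of the annotated start and not of the transcripts in these cells.

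The messages with the fewest footprints for their RNA included regulators of the stress response and of polyamines. In mRNAs of the first kind, short upstream open reading frames (uORFs) in the leader are known to capture ribosomes until stress lets them pass. Of 20 such genes 15 were tested. Of these 11 were lower (73.3%, against 31.9% over all genes) and 2 higher (13.3%, against 28.8%), and the median was -1.22. ATF4, the transcription factor of the integrated stress response, had 31.9, 38.7 and 25.2 CPM in footprints, against 142, 139.9 and 124 CPM in total RNA (-2.08 ± 0.17, adjusted p = 7.09e-08). PPP1R15B, which with its phosphatase reverses eIF2 phosphorylation, had 311, 322 and 194 CPM in footprints, against 1081, 997 and 803 CPM in total RNA (-1.80 ± 0.17, adjusted p = 3.63e-07). Footprints of both lay below total RNA in every library. PPP1R15A, the stress-induced form of the same subunit, was at -1.22 ± 0.19. These 3 genes were chosen after their values were seen. The cell cycle inhibitor CDKN1A, one of the pair with most footprints in the list, was lower at -0.76 ± 0.14 (adjusted p = 0.000235), and the p53 ligase MDM2, the other, was not called at 0.10 ± 0.11 (adjusted p = 0.469). The 2 higher members were EPRS (1.15 ± 0.13), the glutamyl-prolyl-tRNA synthetase, and the zinc finger protein ZNF622 (1.62 ± 0.26). DDIT3, the stress factor CHOP, was not tested: it had no footprint beside 49, 42 and 25 total RNA counts.

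**Figure D2:**
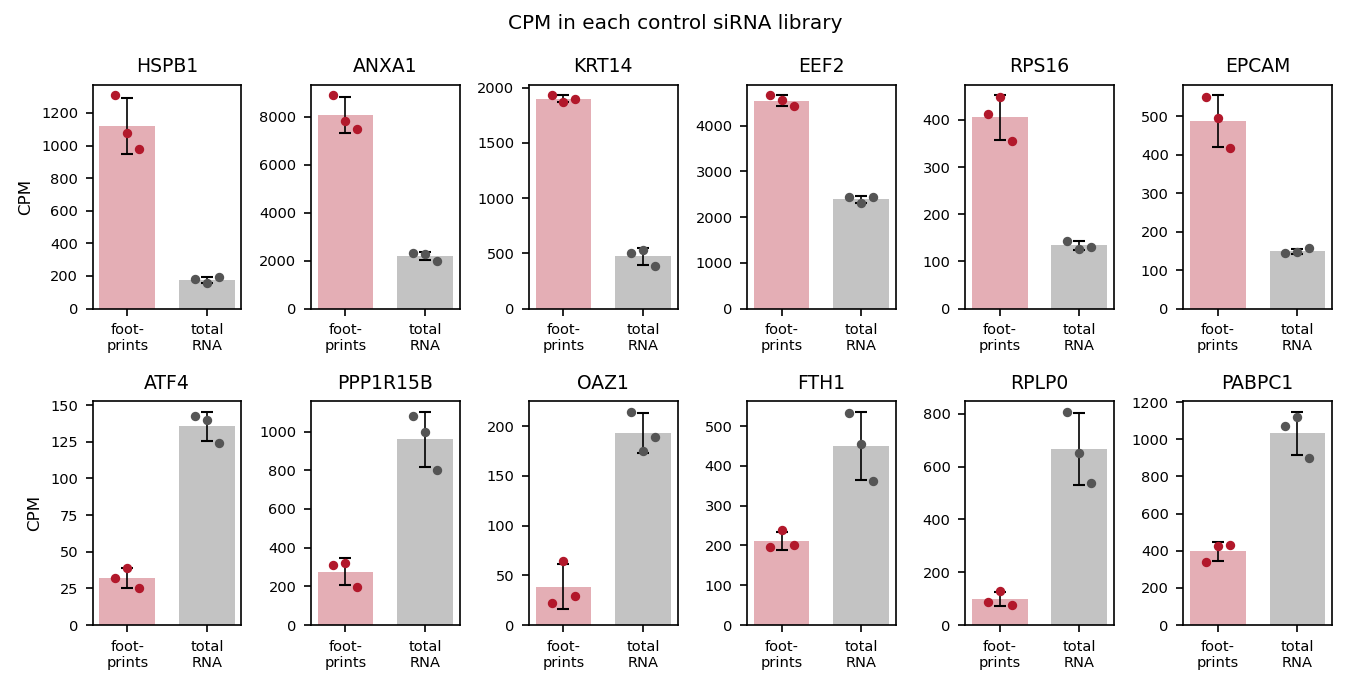
CPM of 12 genes in each control siRNA library, with footprints on the left and total RNA on the right of each panel. Bars are means from 0, error bars are SDs of 3 libraries and points are libraries. The upper 6 genes, HSPB1 to EPCAM, have all footprint points above the total RNA points, and the lower 6, ATF4 to PABPC1, have all of them below.

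Of 15 tested genes of iron and polyamine control, 8 were lower and 4 higher, with a median of -0.48. These make 53.3% lower and 26.7% higher, against 31.9% and 28.8% over all genes. The median was -0.75 without footprint replicate 1, -0.90 without footprint replicate 3, -0.86 with limma-voom and -0.07 when total RNA was scaled to all genes of its table. AMD1, which makes decarboxylated S-adenosylmethionine for polyamines, and SAT1, which acetylates polyamines for export, stand in this list and in the uORF list, and were lower at -2.15 ± 0.36 and -1.61 ± 0.16. OAZ1, the antizyme whose reading frame shifts when polyamines are plentiful, had 22, 64.1 and 29.5 CPM in footprints, against 215, 175 and 189 CPM in total RNA (-2.33 ± 0.26, adjusted p = 1.54e-06). AZIN1, the antizyme inhibitor, had 22.8, 16.6 and 15.6 CPM in footprints, against 107, 114 and 117 CPM in total RNA (-2.60 ± 0.18, adjusted p = 1.67e-08). Both stood far below in every library. The ferritin chains FTH1 and FTL, whose mRNAs are blocked by iron regulatory proteins when iron is short, were at -1.09 ± 0.15 and -0.99 ± 0.19, while their pseudogene symbols held 9.81 and 4.64% of the total RNA counts of gene and pseudogenes. TFRC, the transferrin receptor that brings iron in, was at 0.35 ± 0.11 (adjusted p = 0.0139, and 0.0665 without total RNA replicate 2). ALAS1, the first enzyme of haem synthesis, was highest at 1.77 ± 0.17. OAZ1, SAT1, FTH1 and FTL were chosen after their values were seen.

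Selenoprotein mRNAs need a stop codon read as selenocysteine. Of 12 tested, 6 were lower and 3 higher, with a median of -0.76. The median was -0.35 with a mean of at least 100 counts and -0.37 when total RNA was scaled to all genes of its table. GPX1, the cytosolic glutathione peroxidase, had 46.5, 38.7 and 33.3 CPM in footprints, against 213, 164 and 159 CPM in total RNA (-2.17 ± 0.17, adjusted p = 5e-08). GPX4, which reduces lipid peroxides and was chosen after its values were seen, was at -1.20 ± 0.19. TXNRD1, the cytosolic thioredoxin reductase with its selenocysteine next to the end, was not called at -0.11 ± 0.12 (adjusted p = 0.447). SELENOK and SELENOS, membrane proteins of the endoplasmic reticulum, were higher at 1.16 ± 0.24 and 1.13 ± 0.16. Another 4 members, SELENOW among them with 2.67 footprint counts and 147 total RNA counts on average, passed in total RNA only.

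The 13 proteins encoded by mitochondrial DNA are made by mitochondrial ribosomes, whose footprints the same protocol can capture. All 13 were tested, 8 were higher and 1 was lower, with a median of 0.84, and together they held 2.14, 2.34 and 2.13% of footprints, against 1.39, 1.43 and 1.71% of total RNA. MT-ND5, a subunit of complex I, had 5792, 5196 and 4962 CPM in footprints, against 677, 776 and 971 CPM in total RNA (2.72 ± 0.15, adjusted p = 1.87e-09). MT-CO1, the catalytic subunit of cytochrome oxidase, had 3343, 3727 and 2981 CPM in footprints, against 3832, 3657 and 3787 CPM in total RNA, and was not called (-0.17 ± 0.12, adjusted p = 0.258). It was called lower when scaled by library totals alone (adjusted p = 0.0125) and with a mean of at least 100 counts (0.00586). MT-CO3, a neighbouring subunit of the same enzyme, had 1523, 1696 and 1664 CPM in footprints, against 2692, 2579 and 2973 CPM in total RNA, and was the lower one (-0.76 ± 0.12, adjusted p = 4.87e-05). Complex I genes also included MT-ND6 at 2.12 ± 0.16 and MT-ND4 at 1.28 ± 0.14, both chosen after their values were seen. MT-ATP8, a small subunit of ATP synthase, had the highest ratio, 3.38 ± 0.20. Its gene overlaps MT-ATP6, so its reads cannot be told apart from those of MT-ATP6 without the counting rule. MT-ND6 lies on the opposite strand from its neighbours, and the strand setting is not given in the sources used here.

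Nuclear genes for the respiratory chain were mostly higher, 54 of 76 against 2 lower, with a median of 0.88. ATP5B, the catalytic subunit of ATP synthase, was at 0.97 ± 0.11 and UQCRC1, a core protein of complex III, at 0.61 ± 0.11 (adjusted p = 2.53e-06 and 0.000196). NDUFA13 of complex I was highest at 3.09 ± 0.20, on a mean of 36.7 total RNA counts, and COX6A1 of complex IV lowest at -1.66 ± 0.23. Of 63 mitochondrial ribosomal proteins, 30 were higher and 1, MRPS16 (-0.78 ± 0.22), was lower, with a median of 0.65. With total RNA scaled to all genes of its table MRPS16 was not called (adjusted p = 0.197). MRPL32 and MRPS18B, with the most footprints, were at 1.20 ± 0.17 and 0.81 ± 0.18. MRPS24, highest at 2.27 ± 0.29, rests on 27 total RNA counts and has a readthrough symbol with URGCP in the total RNA table.

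The structural proteins of epithelial cells stood high. Of 13 keratins tested, 12 were higher and none lower, and the median of 1.36 was the highest of all lists. Keratins held 1.40, 1.52 and 1.68% of footprints, against 0.606, 0.668 and 0.603% of total RNA. KRT14, a basal keratin, had 1931, 1867 and 1900.1 CPM in footprints, against 501, 533 and 386 CPM in total RNA (2.0 ± 0.14, adjusted p = 1.16e-08). KRT5, its partner, had 3237, 3467 and 4153 CPM in footprints, against 1022, 1188 and 1192 CPM in total RNA (1.67 ± 0.13, adjusted p = 5.23e-08). Both stood more than 2-fold apart in every library. KRT17, with the most keratin footprints, was at 1.36 ± 0.13, and KRT80, the single keratin not called, at -0.66 ± 0.31 (adjusted p = 0.0806) on a mean of 22 footprint counts. KRT80 was called lower without footprint replicate 1 (adjusted p = 0.0293), with limma-voom (0.0246) and scaled by library totals alone (0.0358).

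Of 29 cytoskeletal genes, 25 were higher and 1 lower, with a median of 1.03. Apart from ANXA1, described above, the most footprints were on ACTB, cytoplasmic actin, with 4672, 3672 and 3191 CPM in footprints, against 1638, 1456 and 1386 CPM in total RNA (1.36 ± 0.15, adjusted p = 1.02e-06). The tropomyosin TPM2 was highest at 2.07 ± 0.15. The lower one was TMSB10, the actin-sequestering thymosin beta-10, with 112, 165 and 142 CPM in footprints, against 545, 483 and 384 CPM in total RNA (-1.75 ± 0.16, adjusted p = 2.17e-07). Its close relative TMSB4X had no footprint beside 91, 89 and 58 total RNA counts, and was not tested. Whether this absence comes from how reads were assigned was not tested either.

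Junction genes were higher in 16 of 25 cases (64.0%) and lower in 2 (8.0%), with a median of 0.58. Laminins, integrins and matrix genes were higher in 13 of 28 (46.4%) and lower in 3 (10.7%), with a median of 0.40. Over all genes 28.8% were higher and 31.9% lower. The matrix median was 0.0015 with a mean of at least 100 counts, where log2 ratios of the kept genes shifted by a median of -0.245. It was 0.24 scaled by library totals alone and 0.28 with limma-voom. EPCAM, an adhesion molecule of epithelia, had 551, 495 and 417 CPM in footprints, against 144, 148 and 157 CPM in total RNA (1.71 ± 0.13, adjusted p = 3.54e-08). ITGB8, the integrin beta-8 chain, had 185, 187 and 182 CPM in footprints, against 810.3, 841 and 734 CPM in total RNA (-2.11 ± 0.12, adjusted p = 2.32e-09). ITGB8 and ITGB4 (0.58 ± 0.13), both beta chains, thus stood on opposite sides of the average gene. The hemidesmosome linker DST was the highest matrix-list member at 1.02 ± 0.17.

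Small secreted and calcium-binding proteins were higher in 19 of 24 cases and lower in 1, with a median of 1.00. S100A6, with the most footprints, had 6814, 6320.0 and 6408 CPM in footprints, against 2292, 1786 and 1864 CPM in total RNA (1.72 ± 0.13, adjusted p = 3.91e-08). S100A11 had 703, 762 and 726 CPM in footprints, against 139.5, 125 and 136 CPM in total RNA (2.45 ± 0.12, adjusted p = 8.74e-10). S100A16 was the lower one, with 197, 202 and 146 CPM in footprints, against 429, 362 and 339.9 CPM in total RNA (-1.05 ± 0.14, adjusted p = 1.34e-05). Members of the S100 family, all small calcium-binding proteins, thus differed in direction with no overlap between libraries. The secreted protease inhibitors SLPI, PI3 and TIMP1 were at 1.16 ± 0.17, 2.39 ± 0.15 and 2.27 ± 0.15.

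Protein folding and turnover genes lay above the average gene. Of 22 cytosolic chaperones, 18 were higher and 2 lower, with a median of 1.23. HSPB1, the small heat shock protein also called HSP27, had 1309, 1074 and 976 CPM in footprints, against 179.7, 155 and 192 CPM in total RNA (2.68 ± 0.14, adjusted p = 1.62e-09). HSP90AB1, the constitutive form of HSP90, was at 1.87 ± 0.12. HSPA1B, the inducible HSP70, was lowest at -1.34 ± 0.30, and shares nearly all of its sequence with HSPA1A, which was left out with 12.3 footprint counts, so its value is uncertain. Of 23 endoplasmic reticulum chaperones and folding enzymes, 16 were higher and 3 lower, with a median of 0.91. HSPA5, the BiP chaperone, had 5586, 4558 and 4262 CPM in footprints, against 1656, 1419 and 1352 CPM in total RNA (1.70 ± 0.14, adjusted p = 6.79e-08). CANX, the membrane chaperone calnexin, was at 0.81 ± 0.12, and DNAJC3, the lowest, at -0.61 ± 0.13 (not called with total RNA scaled to all genes of its table, adjusted p = 0.155). The disulfide isomerase TXNDC5 was highest at 3.12 ± 0.17, on 115 total RNA counts, and has a readthrough symbol with BLOC1S5 in the total RNA table.

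Of 34 proteasome subunits, 30 were higher and none lower, with a median of 1.08. PSMB7, a catalytic subunit, had 204, 185 and 228 CPM in footprints, against 101, 93.1 and 103 CPM in total RNA (1.05 ± 0.13, adjusted p = 4.58e-06). PSMA7 was at 0.43 ± 0.14, with an adjusted p of 0.0149 that ran from 0.0584 to 0.0809 without each of 3 libraries. PSMA6, highest at 3.67 ± 0.22, rests on 27.3 total RNA counts, and 15.5% of the counts of gene and pseudogenes lay on its pseudogenes. Of 22 aminoacyl-tRNA synthetases and partners, 21 were higher and none lower, with a median of 1.09. QARS, which charges tRNAs with glutamine, was at 1.1 ± 0.12, AIMP1, a scaffold of the synthetase complex, highest at 1.74 ± 0.17, and IARS, for isoleucine, the single one not called at -0.16 ± 0.13 (adjusted p = 0.286), though called lower by library totals alone (0.0464) and with a mean of at least 100 counts (0.00966).

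Glycolysis was also above the average gene, with 14 of 15 enzymes higher, none lower and a median of 1.07. PKM, pyruvate kinase, had 2344, 2162 and 2306 CPM in footprints, against 1047, 1029 and 1036 CPM in total RNA (1.13 ± 0.11, adjusted p = 4.99e-07). ALDOA, aldolase, was at 1.34 ± 0.12 and LDHB, a lactate dehydrogenase chain, highest at 1.72 ± 0.14. PFKL, the liver-type phosphofructokinase, was not called at -0.04 ± 0.21 (adjusted p = 0.892). PGAM1 was left out with no footprint count beside 28, 29 and 28 total RNA counts.

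Lysosomal genes were higher in 23 of 30 cases and lower in 3, with a median of 0.86. PSAP, the precursor of saposins, was at 0.55 ± 0.14, and the protease CTSB, with 1702, 1562 and 1276 CPM in footprints and 1794, 1443 and 1323 CPM in total RNA, was not called (-0.01 ± 0.14, adjusted p = 0.973). CTSD, another lysosomal protease, was lowest, with 129, 151 and 102 CPM in footprints, against 530.4, 390.0 and 439 CPM in total RNA (-1.83 ± 0.16, adjusted p = 1.12e-07). ATP6V0C, of the proton pump, had the highest ratio of all genes tested, 5.03 ± 0.21, on 24.7 total RNA counts. Interferon and antigen presentation genes were higher in 17 of 22 cases and lower in none, with a median of 0.81. B2M, the light chain of class I molecules, was at 0.61 ± 0.14, the interferon-induced IFI6 at 0.98 ± 0.13 and the peptide transporter TAP1 not called at -0.29 ± 0.14 (adjusted p = 0.0763). TAP1 was called lower without total RNA replicate 3 (adjusted p = 0.0221), in 1 fit over 12 libraries (0.0299), scaled by library totals alone (0.00444) and with a mean of at least 100 counts (0.00189). HLA-B, highest at 1.85 ± 0.16, belongs to a family with near-identical members and is uncertain.

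**Figure D3:**
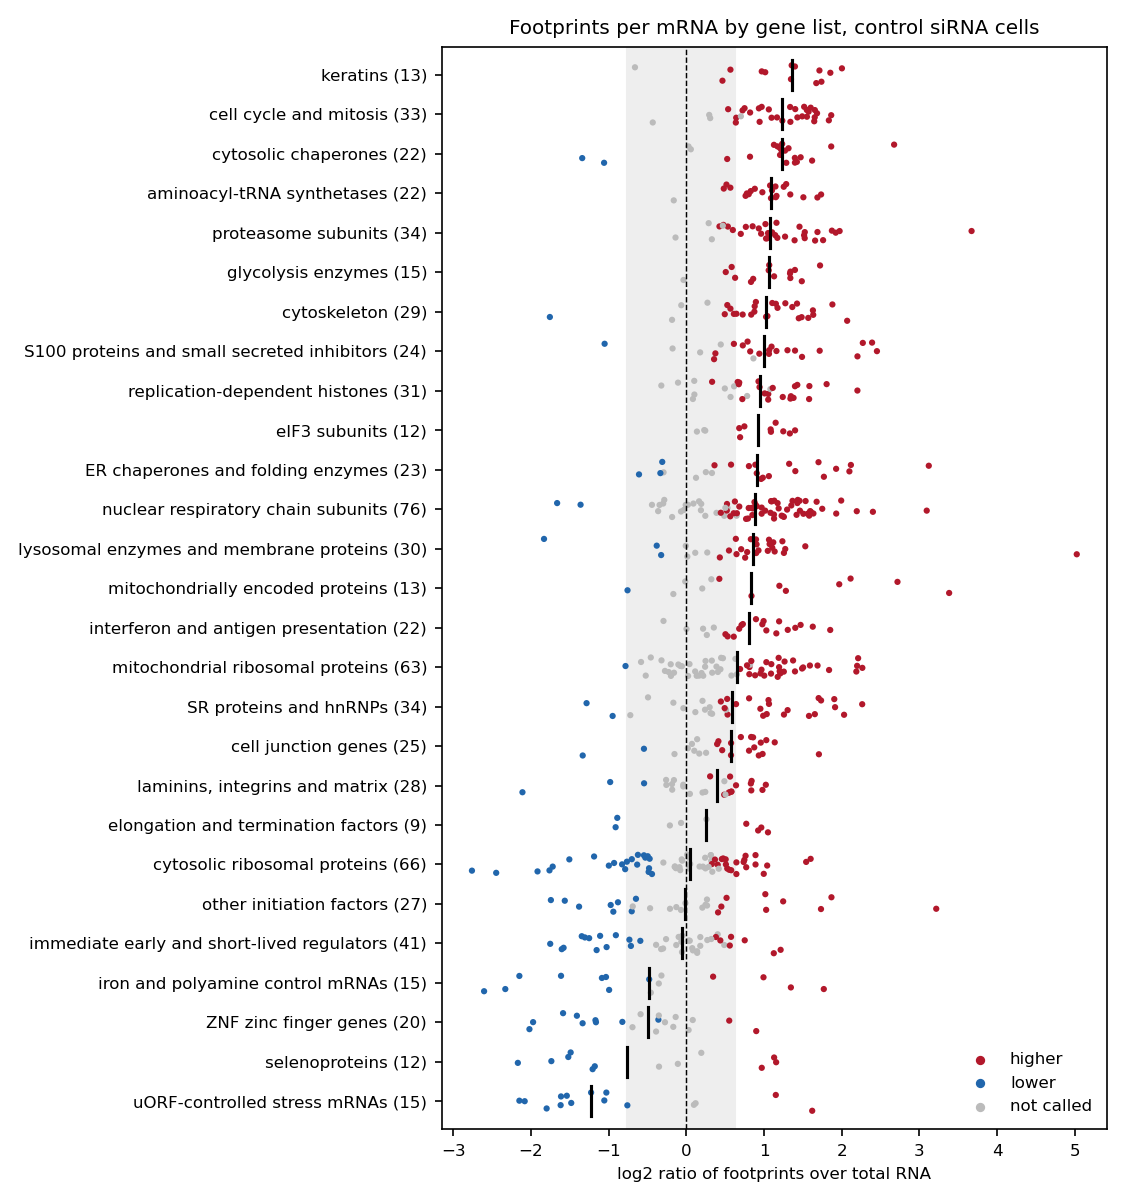
Log2 ratio of footprints over total RNA for each tested member of 27 gene lists (rows, with the number tested), ordered by median. Red points are members with footprints higher and blue points lower in edgeR's test, grey points were not called, black bars are list medians, the dashed line is the median of all genes tested (-0.01) and the shaded band their middle quartiles (-0.76 to 0.62). Keratins, at 1.36, stand at the top and the uORF-controlled stress mRNAs, at -1.22, at the bottom, while ribosomal proteins cover both sides.

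Genes of the dividing cell were high for their RNA. Of 33 cell cycle and mitosis genes, 29 were higher and none lower, with a median of 1.24. TOP2A, the topoisomerase that untangles chromosomes, had 258, 241 and 378 CPM in footprints, against 76.9, 103 and 119 CPM in total RNA (1.55 ± 0.18, adjusted p = 2.81e-06). TPX2, a spindle assembly factor, was at 1.40 ± 0.14. PCNA, the replication clamp, was highest at 1.87 ± 0.35 on 66.3 footprint and 32.3 total RNA counts, and BIRC5, survivin, was not called at -0.43 ± 0.39 (adjusted p = 0.358). BIRC5 was called lower, at -0.97, without footprint replicate 3 (adjusted p = 0.0266) and, at -0.85, with limma-voom (0.0459). Footprint replicate 3 stood highest for these 4 genes, and the list held 0.172, 0.174 and 0.240% of footprints, against 0.0899, 0.107 and 0.109% of total RNA.

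Of 31 replication-dependent histones, 21 were higher and none lower, with a median of 0.94. HIST1H1C, a linker histone, was at 1.58 ± 0.14 and HIST1H3B at 2.20 ± 0.22. HIST1H2AC was at 0.33 ± 0.13 with an adjusted p of 0.0333, which ran from 0.063 to 0.152 without each of 3 libraries. Their mRNAs end in a stem-loop in place of a poly(A) tail, and many copies are nearly identical, so members are uncertain. SR proteins and hnRNPs, the RNA-binding proteins of splicing, were higher in 21 of 34 cases and lower in 2, with a median of 0.59. HNRNPU and HNRNPM were at 1.74 ± 0.17 and 2.26 ± 0.21. The splicing repressor PTBP1 was at 0.81 ± 0.12 and its paralog PTBP3 at -1.28 ± 0.13 (adjusted p = 3.07e-05 and 4.84e-07), on opposite sides of the average gene.

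Transcriptional regulators had few genes higher. Of 41 immediate early and short-lived regulators, 7 were higher (17.1%, against 28.8% over all genes) and 13 lower (31.7%, against 31.9%), with a median of -0.05, or 0.34 when total RNA was scaled to all genes of its table. MYC, with the most footprints, had 668, 806 and 879.7 CPM in footprints and 620.2, 578 and 753 CPM in total RNA, which overlapped (0.27 ± 0.14, adjusted p = 0.0981). It was called higher with limma-voom (adjusted p = 0.0193), with a mean of at least 1 count (0.0194), with total RNA scaled to all genes (0.000245), without footprint replicate 1 (0.0233) and without total RNA replicate 3 (0.0338). EGR3, an early growth response factor, was lowest at -1.75 ± 0.23, and CYR61, a secreted matrix signal, highest at 1.21 ± 0.15. FOSL2, an AP-1 subunit named after its values were seen, was at -1.58 ± 0.12. NOTCH1, the receptor among the 10 tested genes with most total RNA counts, was at -0.52 ± 0.16 (adjusted p = 0.00911). Its adjusted p was 0.0525 without footprint replicate 2 and 0.0534 with a mean of at least 1 count. With total RNA scaled to all genes of its table NOTCH1 was at -0.11 (adjusted p = 0.406). Another list held 271 zinc finger genes with ZNF symbols. It was drawn up for KRAB repressors and also holds genes outside that family, such as the epidermal factor ZNF750. Of the 271, 78 had too few footprints and enough total RNA and none the reverse, 173 had too little of both, and 20 were tested. Of these 9 were lower (45.0%) and 2 higher (10.0%), against 31.9% and 28.8% over all genes. The median was -0.49, with members from ZNF121 at -2.02 ± 0.18 to ZNF430 at 0.90 ± 0.26. ZNF750 (0.55) was the other higher one. Because a limit on footprint counts removes members with few footprints for their RNA, the tested members are not the whole list. All 271 genes together held 0.113, 0.123 and 0.133% of footprints, against 0.227, 0.246 and 0.248% of total RNA.

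**Figure D4:**
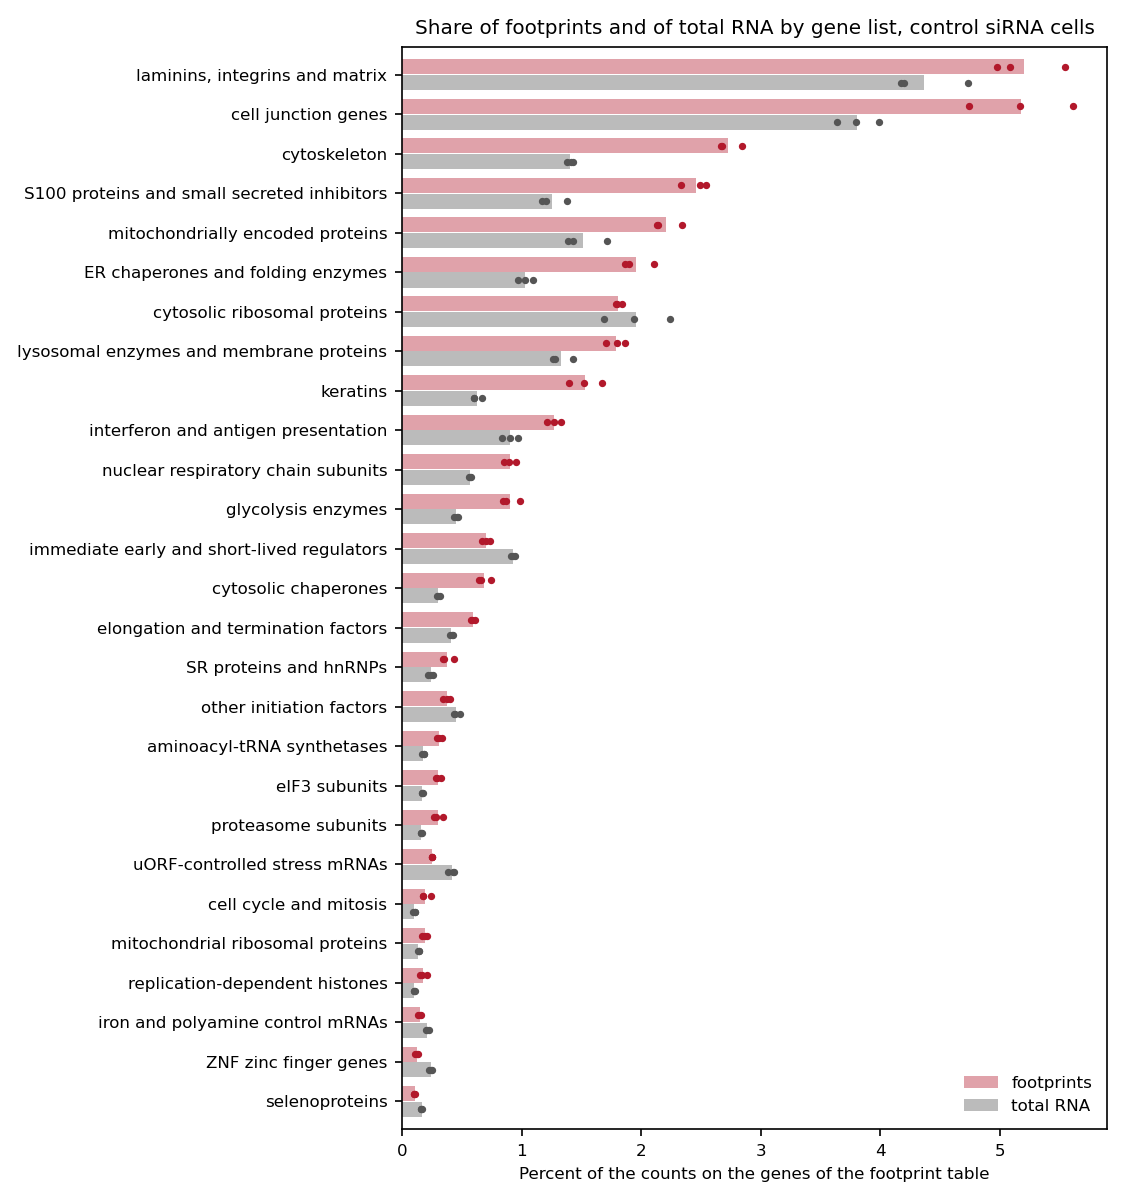
Percent of the counts on genes of the footprint table held by all members of 27 gene lists, with footprints (red) above total RNA (grey). Bars are means from 0 and points the 3 libraries. Matrix and junction genes hold most of the footprints shown, 5.20 and 5.18% on average, and ZNF zinc finger genes, selenoproteins, iron and polyamine control, uORF-controlled, immediate early genes and other initiation factors hold a smaller share of footprints than of total RNA, with no overlap.

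The extremes among abundant genes were named by size, from called genes with a mean of at least 100 counts in each assay and no overlap. The lowest was CD24, a small glycosylated surface protein, with 99.9, 64.6 and 52.6 CPM in footprints, against 715, 805 and 628 CPM in total RNA (-3.29 ± 0.19, adjusted p = 3.31e-09). VGLL3, a cofactor of TEAD transcription factors, had 99.9, 113 and 83.2 CPM in footprints, against 972, 1016 and 826 CPM in total RNA (-3.25 ± 0.15, adjusted p = 5.97e-10). NDST1, an enzyme of heparan sulfate synthesis, had 47.8, 69.5 and 42.4 CPM in footprints, against 502, 489 and 517 CPM in total RNA (-3.24 ± 0.16, adjusted p = 1.11e-09). All 3 stood far below in every library. FAM84B followed at -3.22 ± 0.17, then RPLP0, the actin-binding ABLIM1 (-2.66 ± 0.14) and MPRIP (-2.65 ± 0.15), EFCAB14 (-2.53 ± 0.22), the mitochondrial phosphatase PPTC7 (-2.50 ± 0.24), the endoplasmic reticulum tether PDZD8 (-2.49 ± 0.13), the adaptor SHC1 (-2.45 ± 0.15) and NIPAL3 (-2.37 ± 0.20).

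At the other end, after MT-ATP8, TXNDC5, MT-ND5 and HSPB1, came FXYD5, a regulator of the sodium pump, with 958, 869 and 878 CPM in footprints, against 163, 139 and 148 CPM in total RNA (2.59 ± 0.12, adjusted p = 8.74e-10). TECR, an enzyme of very long chain fatty acid synthesis, had 454, 372 and 363 CPM in footprints, against 73.0, 66.7 and 71.3 CPM in total RNA (2.49 ± 0.13, adjusted p = 1.62e-09). PRKCSH, the beta subunit of glucosidase II in glycoprotein folding, had 1096, 995 and 928 CPM in footprints, against 205, 188 and 196 CPM in total RNA (2.36 ± 0.12, adjusted p = 1.2e-09). With S100A11, PI3, TIMP1, HNRNPM and the secreted chaperone CLU (2.22 ± 0.14), these made up the 12 highest.

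Genes outside the limit were given no ratio. Whether an absence of counts in one assay comes from how reads were assigned to genes was not tested. In 57 genes footprints averaged under 20 counts while total RNA averaged at least 200. C6orf62 had 3, 14 and 5 footprint counts, against 794, 1136 and 817 total RNA counts. The reverse held for 6 genes: EEF1G, given above, SERPINA3, RNASEK, CD68, IFI30 and IRF9. SERPINA3, a secreted protease inhibitor, had 2558, 2130 and 1858 footprint counts and 16 total RNA counts in each library. Nearest to the limit, CUL5 passed with 20 footprint counts and ADAMTS14 missed with 19.7, while SNRNP27 passed with 20 total RNA counts and MRPL48 missed with 19.7.

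The ratio moved with gene size and abundance. Over 6992 genes matched to RefSeq, in 5 equal bins of genomic span, the median log2 ratio was 0.23 in the shortest and -0.39 in the longest, and Spearman's rho across genes was -0.22, a description with no test, since genes are not replicates. In 10 equal bins of total RNA level, taken from the eIF3e siRNA libraries so as not to reuse the denominator, the median was 0.64 in the least abundant, -0.29 in the seventh bin and -0.06 in the most abundant. The limit on footprint counts keeps low-abundance genes only if their ratio is high, which shapes the first value.

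The ratios were also measured in libraries that had not entered them. In the cells treated with eIF3e siRNA at the same dose and time, with 3 footprint and 3 total RNA libraries of their own, 2238 of 7717 genes were higher (29%) and 2305 lower (29.9%). Of 1989 genes higher in control cells with a ratio in both, 98.1% were above and 83.9% were called higher after eIF3e siRNA. Of 2171 lower ones, 97.2% were below and 81.9% were called lower. Across 6811 genes Pearson's r of the ratios was 0.92 and Spearman's rho 0.91, a description across genes of libraries from one cell line and protocol. The list medians after eIF3e siRNA were 1.16 for cytosolic chaperones, 1.16 for proteasome subunits, 0.92 for eIF3 subunits and -1.27 for the uORF-controlled mRNAs, beside 1.23, 1.08, 0.92 and -1.22 in control cells. Other medians lay further apart. For ribosomal proteins the median was 0.44 after eIF3e siRNA and 0.04 in control cells, and for mitochondrially encoded genes it was 0.33 after eIF3e siRNA and 0.84 in control cells. Histones were at 0.34 after eIF3e siRNA and at 0.94 in control cells, and cell cycle genes at 0.84 after eIF3e siRNA and at 1.24 in control cells. Immediate early genes were at -0.41 after eIF3e siRNA and at -0.05 in control cells, and ZNF genes at -0.91 after eIF3e siRNA and at -0.49 in control cells. The differences between these medians were not tested.

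The difference between treatments itself was called in 62 of 7018 genes (0.883%) by edgeR in one fit over 12 libraries, in 42 with the ratio higher and in 20 with the ratio lower after eIF3e siRNA. With 1 library left out, this count ran from 10, without eIF3e siRNA total RNA replicate 1, to 88, without control footprint replicate 1. It was 11 and 24 without control total RNA replicates 1 and 2, 14 without eIF3e siRNA footprint replicate 2 and 26 without eIF3e siRNA total RNA replicate 3. PABPC1 had a log2 ratio of -0.35 after eIF3e siRNA and of -1.38 in control cells, a difference of 1.03 ± 0.17 (adjusted p = 0.00928). Of the ribosomal proteins 5 of 66 were called, and of the mitochondrially encoded genes 3 of 13.

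**Figure D5:**
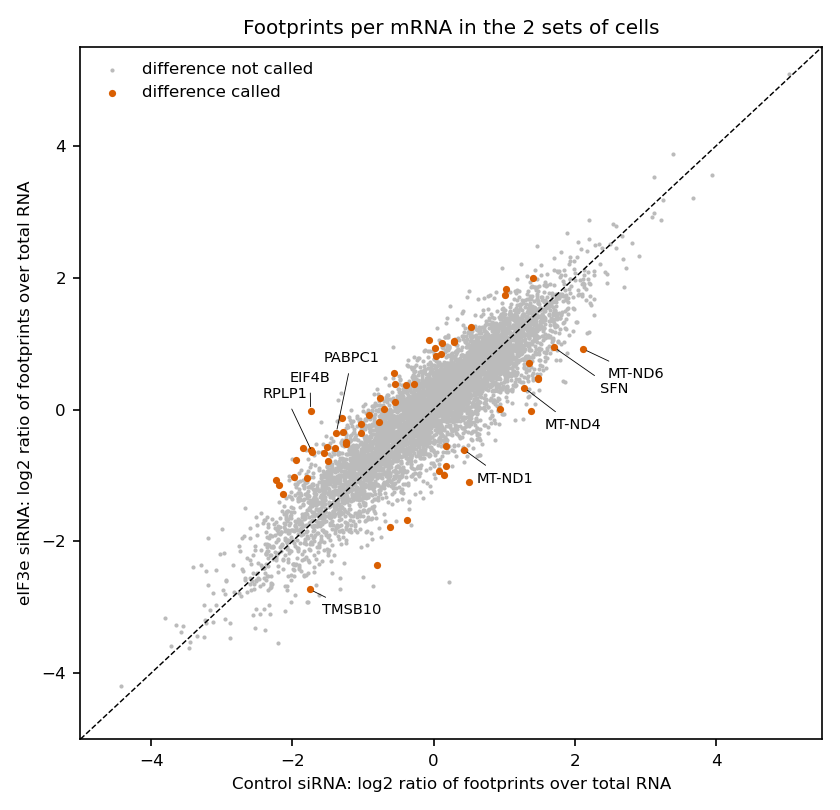
Log2 ratio of footprints over total RNA after eIF3e siRNA (vertical) against control siRNA (horizontal) for 6811 genes tested in both, with equality as a dashed line. Orange points are genes whose difference between treatments was called by edgeR (62 of the 7018 genes tested for it). Most genes lie along the line from the low to the high end.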

How the data were processed

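Ribosome footprints and total RNA of MCF-10A cells were sequenced by the authors and deposited as whole-number counts per gene symbol. Reads were processed with cutadapt 1.18, Bowtie 1.1.2, STAR 2.5 and HTSeq (version not given in the sources used here) against hg38/GRCh38, per the submitters' processing notes. None of these sources states the counted feature, the strand setting or the annotation. Here the 6 control siRNA libraries were joined on the 20248 genes of the footprint table. Library sizes were counts on those genes, scaled by TMM, and genes needed a mean of 20 counts in each assay. Footprints were tested against total RNA with edgeR 4.0.16 (robust quasi-likelihood, Benjamini-Hochberg adjustment at 0.05, with at least 2-fold as a second rule) in R 4.3.3. The 6 libraries of eIF3e siRNA cells had the same fit, and the difference between treatments was the interaction over 12 libraries on 7018 genes. The computation was tested on simulated data with known changes. These were set in a small part of the genes and in both directions, so the simulation could not test the choice of scaling. DESeq2 1.42.0, limma 3.58.1 (voom), other scalings and filters, a replicate block and leaving out each library were alternatives. Those for the difference between treatments were chosen after seeing the data. Python 3.11.15, pandas 2.3.3, scipy 1.17.1 and matplotlib 3.10.9 made the tables and plots.

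The members, lists and tests were chosen with earlier results of these data known. Genes were named by rule. From called genes with no overlap and a mean of at least 100 counts per assay, it took the 12 highest and 12 lowest ratios. It also took the 2 members of each list with most footprint counts, and its highest and lowest member. The 10 tested genes with most counts in each assay and the genes nearest the limit completed the rule. Genes said to be chosen after their values were seen, RPS12, RPLP1, SELENOT, MT-ND1 and SFN, and members named among those left out, fall outside it. Start windows come from the RefSeq promoter table (GRCh38.p14), in which 6992 of 7018 genes were matched by symbol or synonym to the gene table and 5808 had a promoter. Windows on chromosome 8 were left out. Same-numbered libraries of the 2 assays deviated together for numbers 1 and 3 and not for number 2, so numbers were not used as pairs. Some genes that the naming rule selects are not reported here.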

Additional observations from a re-analysis of the deposited data

Results flagged for a closer look

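Of 172 named genes 9 had a called difference, beside 62 of 7018 genes tested (0.883%), and 7 of the 9 were chosen after their values were seen (EIF4B and TMSB10 were named by rule). For these 9 the footprints per mRNA differed between eIF3e siRNA and control cells by edgeR's interaction test, and each difference below is eIF3e siRNA minus control on the log2 scale. CPM values were scaled within each treatment's own 6 libraries. The range of adjusted p covers 14 alternatives, of which 12 leave out a library. PABPC1 differed by 1.03 ± 0.17 (adjusted p = 0.00928, 0.000326 to 0.0458) and was called in all 14. Its footprints were at 366, 309 and 322 CPM and its total RNA at 407, 490.3 and 382 CPM after eIF3e siRNA, beside 337, 423 and 429.6 CPM in footprints and 1073, 1121 and 898 CPM in total RNA of control cells. EIF4B differed by 1.73 ± 0.34 (adjusted p = 0.017, 0.0015 to 0.0559; called in 10), with 25.6, 34.1 and 40.9 CPM in footprints and 31.9, 41.2 and 29.1 CPM in total RNA after eIF3e siRNA, beside 20.2, 47.5 and 38.7 CPM in footprints and 123, 136 and 93.5 CPM in total RNA of control cells. RPLP1 differed by 1.08 ± 0.21 (adjusted p = 0.017, 0.000221 to 0.0555; called in 10). SELENOT differed by 1.13 ± 0.27 (adjusted p = 0.0488, 0.0161 to 0.156) and was called in 2 alternatives.

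The other 5 genes had a lower ratio after eIF3e siRNA. MT-ND1 differed by -1.03 ± 0.19 (adjusted p = 0.0158, 0.00273 to 0.0519; called in 13), MT-ND6 by -1.19 ± 0.22 (adjusted p = 0.0134, 0.00381 to 0.0501; called in 13) and MT-ND4 by -0.95 ± 0.17 (adjusted p = 0.0131, 0.00142 to 0.0458; called in 14). SFN, the 14-3-3 sigma protein of epithelia, differed by -0.75 ± 0.15 (adjusted p = 0.017, 2.12e-05 to 0.0472; called in 14). TMSB10 differed by -0.97 ± 0.20 (adjusted p = 0.0198, 0.00291 to 0.0584; called in 9), with a ratio of -2.72 after eIF3e siRNA and -1.75 in control cells.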

How the results depend on the processing

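With total RNA scaled to all genes of its table, 3055 genes were higher and 1451 lower, 1816 and 742 with at least 2-fold. 67.8% of called genes were then higher, beside 47.4% in the scaling reported. RPS6 stood at 0.35, ZNF460 at 0.047 and CTSB at 0.40 there, on the other side of 0. EIF3F (0.0306), MDM2 (0.000788) and TP63 (0.0484) were called higher there. With a mean of at least 1 count, 1496 genes were higher and 2241 lower by at least 2-fold among 11338. With a mean of at least 100 counts, which leaves 2845 genes, 939 were higher and 1006 lower, and 270 and 450 by at least 2-fold. TXNRD1 was called lower there (0.0145). Log2 ratios of the kept genes shifted there by a median of -0.245, as the scaling was recomputed over them. RPL8, TFRC, PSMA7 and HIST1H2AC lost their calls there and by library totals alone. Scaled by library totals alone, 38.6% of called genes were higher.

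Leaving out 1 control library gave 1686 to 2094 genes higher and 1953 to 2274 lower, with at least 2-fold 929 to 1059 and 1273 to 1351. In eIF3e siRNA cells it gave 1913 to 2291 and 1987 to 2387. The difference between treatments ran from 10 to 88 genes, and library totals alone gave 53. DESeq2's Wald test called 1958 and 2169 genes and limma-voom 2145 and 2363.

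Same-numbered footprint and total RNA libraries had correlations of deviations of 0.205, 0.00327 and 0.2, and footprint library 2 correlated best with total RNA library 1 (0.0416). With the replicate block 2109 genes were higher and 2362 lower, and 99.5% of the calls reported were shared. The block gave 262 genes for the difference between treatments. EEF1A1 had an adjusted p of 0.173 with it. With the block, MYC was called higher (0.00476), and TAP1 (0.00657), EMP1 (0.00192) and MT-CO1 (0.0397) lower. The number of libraries limits all of these, and genes under 20 counts have no ratio.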

Other observations

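Genes whose symbol also stands in a readthrough symbol of the total RNA table numbered 27 of 7018 tested (0.385%), with a median log2 ratio of 0.57, against -0.01 for the others. Of the 70 genes with a log2 ratio of at least 2, 5 were of this kind (7.14%): CCPG1, EIF4A1, MRPS24, STBD1 and TXNDC5. Among genes that passed the limit in footprints only, 12 of 155 were (7.74%), and among those that passed in total RNA only, 39 of 2225 (1.75%). The genes with a log2 ratio of at least 2 had a median total RNA count of 75, against 165 over all genes tested. Whether the counting of such loci moves these ratios was not tested.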
